A study of Homo sapiens with 2 samples.

Results

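The nuclear transfer RNA (tRNA) genes of the human genome were examined for JUNB binding. All genes of biotype tRNA on chromosomes 1 to 22 and X in the RefSeq annotation of GRCh38 were taken, which gave 443 of 59098 annotated genes, and a gene was counted as having a peak when the summit of a JUNB peak lay inside it or within 1 kb of either end. The cells were IMR-90, a line of human fibroblasts from fetal lung, and the assay was CUT&RUN, in which an antibody, here against JUNB, directs a nuclease to chromatin and the released DNA fragments are sequenced. There was 1 library from cells with no treatment and 1 from cells treated with etoposide (ETO), a topoisomerase II inhibitor that causes DNA breaks. With 1 library per condition no difference could be set against replicate error, no test of the treatment was possible, and every value below describes these 2 libraries.

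tRNA genes are short genes read by RNA polymerase III, the polymerase that also makes 5S ribosomal RNA and other small RNAs. Most tRNA genes have their promoter inside the gene, as an A box and a B box bound by the factor TFIIIC. TFIIIC brings TFIIIB to the DNA just before the gene, and TFIIIB recruits the polymerase. tRNA genes occur in many copies, often in clusters. In the symbols used here the letter after TR is the amino acid, followed by the anticodon, a number shared by genes with the same mature tRNA sequence, and the copy. JUNB is a subunit of AP-1, a factor of RNA polymerase II genes that binds the motif TGANTCA.

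The genes were 70 to 108 bp long. A B box, searched on both strands as GGTTCGA, any 2 bases and CC, occurred in 0.186% of 34943 promoter windows of RefSeq (250 bases before to 50 after a gene's start) and in 13 of the 29 windows that overlapped a tRNA gene. tRNA genes have no promoter window of their own in that table. The sequences below (RefSeq, GRCh38.p14) are the 250 bases before the start of a neighbouring gene, read in that gene's direction. The first 4 are shown because each holds all or part of a tRNA gene with a JUNB summit beside it, and capitals mark the bases of the annotated tRNA gene.
TRG-CCC2-1, in the window before TIA1, chr2:70248794-70249043, minus strand: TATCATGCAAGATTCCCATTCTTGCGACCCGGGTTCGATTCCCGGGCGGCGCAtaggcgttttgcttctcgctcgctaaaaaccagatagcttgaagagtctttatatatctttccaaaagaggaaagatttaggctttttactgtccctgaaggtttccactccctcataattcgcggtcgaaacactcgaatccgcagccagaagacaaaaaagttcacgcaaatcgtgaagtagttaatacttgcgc
TRG-CCC2-2, in the window before LOC100287175, chr16:636702-636951, plus strand: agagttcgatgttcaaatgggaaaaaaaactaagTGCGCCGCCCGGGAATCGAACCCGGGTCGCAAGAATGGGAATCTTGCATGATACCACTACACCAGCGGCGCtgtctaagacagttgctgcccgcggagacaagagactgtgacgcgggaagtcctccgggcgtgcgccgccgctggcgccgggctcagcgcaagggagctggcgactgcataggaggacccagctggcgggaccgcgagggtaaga
TRF-GAA1-5, in the window before LOC124903191, chr13:94549492-94549741, plus strand: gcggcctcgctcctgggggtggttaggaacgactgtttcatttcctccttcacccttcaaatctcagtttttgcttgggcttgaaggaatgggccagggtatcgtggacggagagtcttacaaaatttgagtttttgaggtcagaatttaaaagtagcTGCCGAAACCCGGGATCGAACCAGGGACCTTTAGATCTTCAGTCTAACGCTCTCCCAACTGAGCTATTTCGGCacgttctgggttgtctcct
TRF-GAA2-1, in the window before LINC02739, chr11:59566131-59566380, minus strand: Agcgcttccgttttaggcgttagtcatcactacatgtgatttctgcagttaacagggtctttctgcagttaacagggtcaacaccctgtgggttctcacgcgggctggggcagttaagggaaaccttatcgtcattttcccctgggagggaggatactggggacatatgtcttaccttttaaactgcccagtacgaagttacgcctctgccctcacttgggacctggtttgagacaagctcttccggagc
The fifth is shown for its AP-1 motifs, marked by capitals. It lies before a start of ALOXE3 near the lysine gene TRK-TTT3-5, where both libraries had a summit.
TRK-TTT3-5, before ALOXE3, chr17:8118304-8118553, minus strand: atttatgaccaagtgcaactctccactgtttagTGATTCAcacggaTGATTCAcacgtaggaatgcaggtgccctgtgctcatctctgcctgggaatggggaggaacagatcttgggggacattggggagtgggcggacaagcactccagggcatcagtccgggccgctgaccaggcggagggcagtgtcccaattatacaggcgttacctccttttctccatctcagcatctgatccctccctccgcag

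In the window before TIA1 the untreated summit was at base 149, past the 53 bases of the tRNA gene. The summits by TRG-CCC2-2 lay outside the printed bases. The window before LOC124903191 had the untreated summit at base 138, 21 bp from the tRNA gene, the shortest distance of any summit. For TRF-GAA2-1 the window held only 1 base of the gene, the one with its lowest coordinate, and the untreated and etoposide summits were at bases 214 and 240. In the window before ALOXE3 the summits were at bases 165 (untreated) and 173 (etoposide), and TGATTCA, a form of TGANTCA, stood at bases 34 to 40 and 47 to 53. Of the 7 windows outside chromosome 8 that held a summit near a tRNA gene, 2 contained TGANTCA. Both were overlapping ALOXE3 windows with the same 2 motifs. Of all 34943 windows, 7.72% contained it. The motif was not in the rest of the 7 windows, which says only that these letters are absent from those bases. Windows on chromosome 8, where untreated summits lay near TRIM55, were not searched for summits.

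Summits lay near 55 of the 443 tRNA genes in 1 or both libraries. A summit within 1 kb was listed for 47 genes without treatment (10.6%), for 18 with etoposide (4.06%) and for 10 in both libraries. Those 10 were 21.3% of the untreated and 55.6% of the etoposide genes. A further 37 genes had a summit in the untreated library alone, 8 in the etoposide library alone, and 388 in neither. The same window around the starts of 15812 protein-coding genes with known strand held a summit for 15.6% (untreated), 5.60% (etoposide) and 4.29% (both). The tRNA share was therefore below that of gene starts in each library.

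Among other short genes the untreated share was 6.49% of 154 snRNA genes, 4.76% of 1911 miRNA genes and 2.93% of 1196 snoRNA genes, all below the tRNA share of 10.6%. The etoposide shares were 3.90%, 2.77% and 2.42%, beside 4.06% for tRNA genes. Of 74 pseudogenes with a tRNA symbol, a group added after the values had been seen, 1 had an untreated summit (1.35%) and 0% an etoposide summit. The difference from tRNA genes was not tested, and the surroundings of the pseudogenes were also sparser, with 4.18 untreated summits per Mb at 5 to 10 kb and 9.65 at 10 to 50 kb, against 11.9 and 14.0 around tRNA genes. The number of genes with a summit in the etoposide library was 0.383 times the untreated number for tRNA genes, 0.359 for protein-coding gene starts, 0.582 for miRNA genes and 0.829 for snoRNA genes, where the ratio of all peaks was 0.791. These ratios compare single libraries and were not tested.

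**Figure D1:**
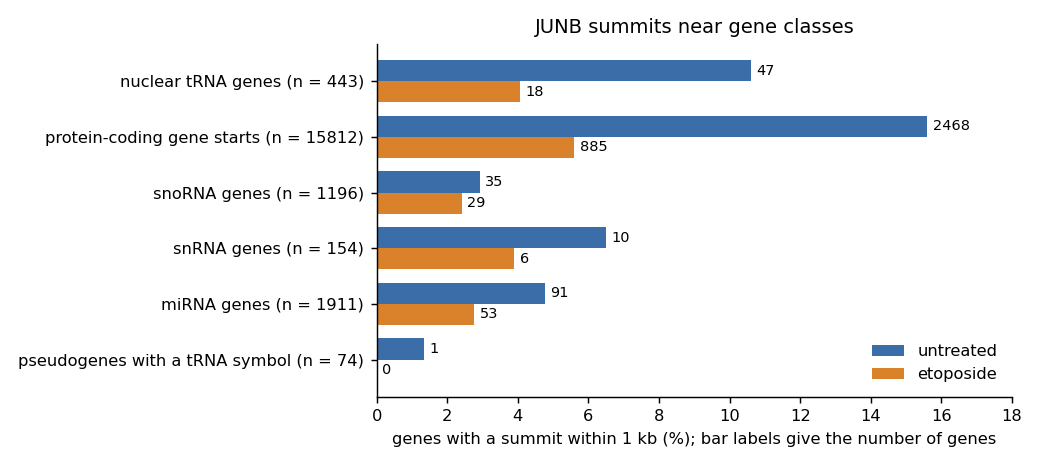
Share of genes with a JUNB summit within 1 kb (x axis, percent) for 6 gene classes (y axis, number of genes in brackets), in the untreated (blue) and etoposide (orange) libraries, with the number of genes beside each bar. The tRNA genes, at 10.6% and 4.06%, lie below protein-coding gene starts and above the other classes shown, though with etoposide snRNA genes are close (3.90%). The separate list of 38 other genes read by RNA polymerase III, not drawn here, had higher shares (23.7% and 13.2%).

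Because neighbouring tRNA genes can share a summit, summits and loci were also counted once each. The untreated list had 41 summits within 1 kb of a tRNA gene, 0.126% of its 32550 summits (95% Wilson interval 0.0929% to 0.171%, counting error only). The etoposide list had 17, 0.0660% of 25739 (0.0412% to 0.106%), 0.415 times the untreated number. In the untreated library 33 summits reached 1 tRNA gene, 7 reached 2 and 1 reached 3. In the etoposide library 15 reached 1 gene and single summits reached 2 and 4.

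tRNA genes no more than 10 kb apart were joined, which gave 226 loci: 84 clusters with 301 genes and 142 single genes. An untreated summit was found at 37 loci (16.4%, Wilson interval 12.1% to 21.8%), an etoposide summit at 12 (5.31%, 3.06% to 9.05%), and both at 10. Of the 84 clusters 15 had an untreated and 6 an etoposide summit, and of the 142 single genes 22 and 6. By genes, the untreated share was 15.5% for single genes, 10.4% in clusters of 2 to 4 genes, 8.47% in those of 5 to 9 and 0% in larger ones. The etoposide shares in the same order were 4.23%, 3.12%, 10.2% and 0%, so the order of the untreated library was not repeated. The 10.2% was 6 of 59 genes, and 4 of the 6 were reached by a single peak of 9 fragments on chromosome 11.

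The 3 largest clusters had no summit of either library within 1 kb of any of their 50 genes. They were the 24 genes from TRG-TCC4-1 to TRG-GCC4-1 on chromosome 1 (161440171 to 161480636), the 12 genes from TRR-TCG4-1 to TRW-CCA3-2 on chromosome 6 (26299677 to 26331515) and the 14 genes from TRR-CCG1-3 to TRP-AGG1-1 on chromosome 16 (3150674 to 3192060). Near-identical copies lie side by side in such clusters. How reads that match several places were assigned is not given in the sources used here, and its part in these counts was not tested. Among the genes whose symbol gives a copy number, 13 of 201 without another copy of the same mature sequence had an untreated summit (6.47%), 10 of 93 with 2 to 4 copies (10.8%) and 23 of 129 with 5 or more (17.8%). The etoposide numbers were 6, 7 and 4 (2.99%, 7.53% and 3.10%), so the untreated share was highest with 5 or more copies and the etoposide share with 2 to 4. A copy is defined here by the mature sequence, and the summits lay in the flanks.

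Chromosome 6 held 155 of the tRNA genes, 146 of them in its first 30 Mb, where histone gene clusters also lie, and its share was below those of chromosome 1 and of the other chromosomes counted as one group. There 7 genes had an untreated summit (4.52%) and 1 an etoposide summit (0.645%). Chromosome 1 had 8 and 4 of 98 genes (8.16% and 4.08%), and the remaining chromosomes together had 32 and 13 of 190 (16.8% and 6.84%). The surroundings differed as well. Untreated summits per Mb on chromosome 6, on chromosome 1 and elsewhere were 8.23, 21.4 and 3.82 at 1 to 2 kb from the tRNA genes. In the same order they were 2.05, 8.27 and 18 at 2 to 5 kb and 2.32, 17.3 and 13.1 at 5 to 10 kb. Farther out they were 10.7, 10.2 and 16.4 at 10 to 50 kb, and 6.18, 19.3 and 15.2 at 50 to 100 kb. Chromosome 6 was thus lowest in each of these rings except those at 1 to 2 kb and 10 to 50 kb. The part of the surroundings in its low share was not tested.

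Summits were densest close to the tRNA genes. None of the 41 untreated and 17 etoposide summits lay inside a tRNA gene, but the genes cover only 0.0333 Mb, where a count of 0 allows up to 90.1 summits per Mb, so a density inside the genes like that of all chromosomes is not excluded. From 0 to 250 bp away there were 111 untreated summits per Mb (24 summits), from 250 to 500 bp 36.9, from 500 to 1000 bp 28.2, and from 1 to 2 kb 9.30. The last is near the 10.7 per Mb of all chromosomes analysed. The etoposide densities were 41.7, 26.4, 8.46 and 3.10, against 8.49 overall. Density within 250 bp was thus above that of all chromosomes in both libraries, and from 1 to 2 kb it was below. Farther out, at 50 to 100 kb, it was 15.4 (untreated) and 11.4 (etoposide). The rise was not particular to tRNA genes. Within 250 bp, protein-coding gene starts were denser, with 158 (untreated) and 46.2 (etoposide). In the same order, snRNA genes had 77.9 and 26.0, miRNA genes 27.8 and 17.8, and snoRNA genes 20.4 and 20.4, all below tRNA genes.

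**Figure D2:**
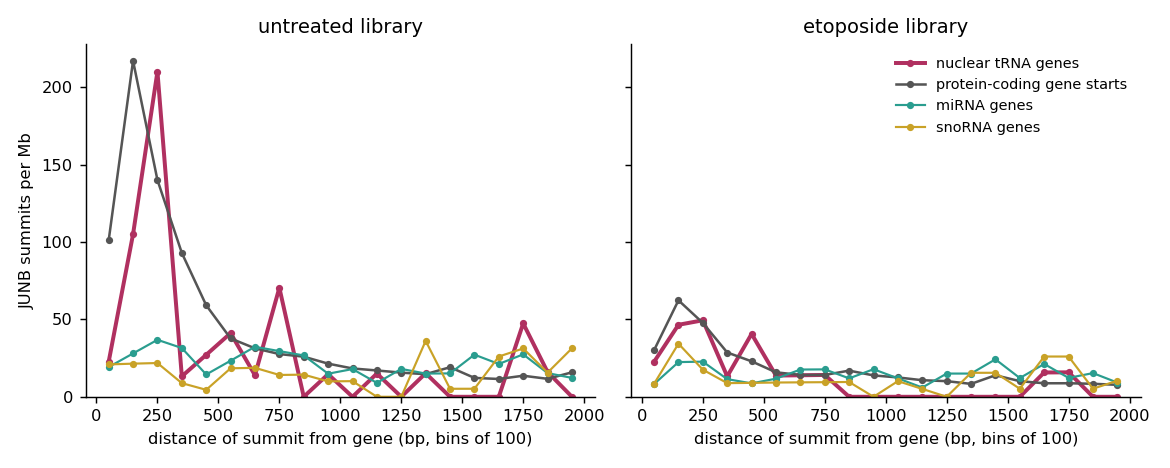
JUNB summits per Mb (y axis) by distance from the gene in bins of 100 bp up to 2 kb (x axis), for tRNA genes, protein-coding gene starts, miRNA genes and snoRNA genes, in each library. For tRNA genes the untreated density is 22.6 in the first 100 bp, 105 in the next and 210 from 200 to 300 bp, then 13.2, and the etoposide density is 22.6, 46.5, 49.4 and 13.2.

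The distances were concentrated in a narrow band. The median distance from the tRNA gene was 246 bp in the untreated library (quartiles 196 and 406 bp) and 250 bp in the etoposide library (160 and 464 bp). Between 100 and 300 bp, a range chosen after the distances had been seen, lay 26 of the 41 untreated summits (63.4%) and 8 of the 17 etoposide summits (47.1%). For protein-coding gene starts the same range held 47.6% and 41.7% of the summits within 1 kb, for miRNA genes 24.2% and 30.8%, and for snoRNA genes 29.4% and 44.4%. At distances of 1 to 90 bp there was 1 summit per library. The strand of tRNA genes was not in the annotation table. With chromosome 8 left out, it was read from the B box for 13 genes. Of these, 4 had a summit (TRG-CCC2-1, TRG-CCC2-2, TRF-GAA1-5 and TRR-ACG2-1), and all 6 summits at these 4 genes lay past the 3′ end. These genes could be oriented because the start of another gene lay beside them, and each of the 6 summits was within 1 kb of a protein-coding boundary, from 0.102 kb (TIA1) to 0.917 kb (SACM1L), so they cannot be told apart from peaks of the neighbour. The count was made after the values had been seen, and no others were placed by side.

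Peaks at tRNA genes were weaker at the median than the other peaks of their lists, as were peaks at the boundaries of protein-coding genes. The number of fragments at a summit, derived from the authors' fold and p, ranged from 6 to 27 in the untreated library with a median of 12, where all other untreated peaks had a median of 15. It ranged from 6 to 19 in the etoposide library with a median of 9, where all others had 13. Fewer fragments than the list median were found at 28 of 41 untreated and 13 of 17 etoposide summits. The authors' -log10 q had a median of 6.90 at the untreated tRNA summits and 8.56 at the others, and 6.41 and 7.85 in the etoposide list. Peaks at tRNA genes were also narrower, with median widths of 222 bp against 270 bp (untreated) and 197 bp against 244 bp (etoposide). Peaks within 1 kb of protein-coding boundaries lay between, with medians of 13 fragments, a -log10 q of 7.68 and 257 bp (untreated) and of 11 fragments, 7.15 and 223 bp (etoposide).

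An overlapping peak in the other list was found for 9 of the 41 untreated peaks at tRNA genes (22%, Wilson interval 12% to 36.7%) and for 51.1% of the other untreated peaks. For untreated peaks at the boundaries of protein-coding genes, within 1 kb and away from tRNA genes, the share was 27.8%. Of the 17 etoposide peaks at tRNA genes 11 had a counterpart (64.7%, 41.3% to 82.7%), beside 64.8% of the other etoposide peaks and 67.8% of those at protein-coding boundaries. The untreated peaks at tRNA genes were weaker than the rest of their list, as given above, and the part of strength in their low sharing was not tested.

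**Figure D3:**
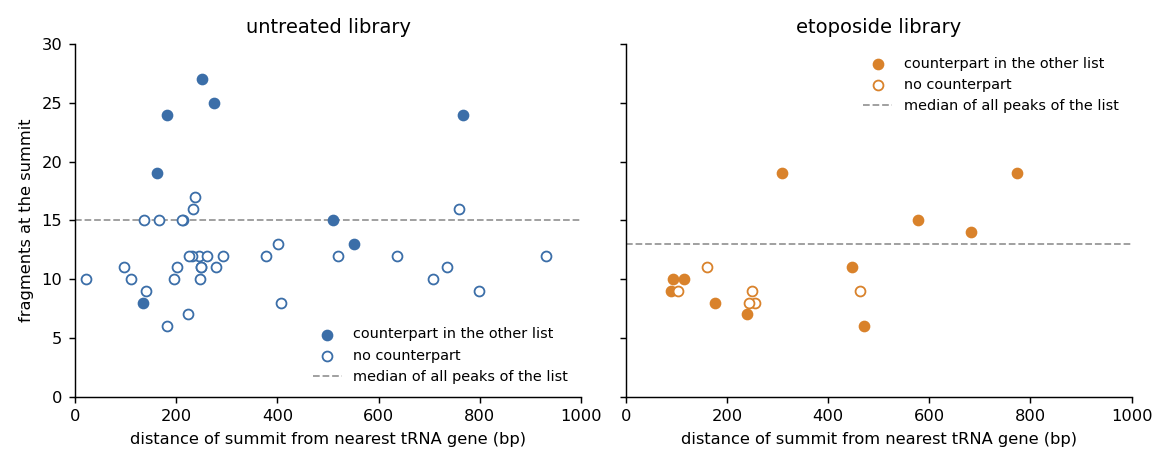
Fragments at the summit (y axis) against the distance of the summit from the nearest tRNA gene (x axis, bp) for the 41 untreated and 17 etoposide summits. Filled points have an overlapping peak in the other list, and the dashed line is the median of all peaks of the list (15 and 13). Between 100 and 300 bp lie 26 untreated and 8 etoposide points, and 28 and 13 points are below the line.

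tRNA genes close to protein-coding genes had a summit more often than those far away. Of 41 tRNA genes up to 1 kb outside a protein-coding gene 12 had an untreated summit (29.3%), of 76 at 1 to 10 kb 10 (13.2%), and of 277 at over 10 kb 20 (7.22%). The etoposide numbers were 4, 6 and 8 (9.76%, 7.89% and 2.89%). Of 49 tRNA genes inside a protein-coding gene 5 had an untreated summit (10.2%) and 0 an etoposide summit. Promoters of protein-coding genes carry JUNB peaks themselves, as the shares at gene starts show. Within 1 kb of a protein-coding boundary lay 15 of the 41 untreated and 6 of the 17 etoposide summits, which cannot be told apart from peaks of the neighbour. The concentration was also seen around the 353 tRNA genes more than 1 kb from a protein-coding gene, where density within 250 bp was 75.2 per Mb (untreated) and 40.5 (etoposide), against 13.4 and 9.35 at 10 to 50 kb. Tests of nearness to starts of other gene types were not made. At TRF-GAA2-1, one of the 353, the summits of both libraries lay in the window before LINC02739.

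The genes with a summit were spread over the amino acids. Of 22 groups (the 20 standard amino acids, with initiator methionine, the TRX genes, and selenocysteine apart) 19 had an untreated and 11 an etoposide summit. Valine had the most in either library, 7 of 30 genes, with 4 in each library and 1 in both. Glycine had 5 untreated and 2 etoposide of 33, leucine 4 and 3 of 32, isoleucine 4 and 0 of 23, and serine 4 and 0 of 26. Alanine had 3 and 0 of 38 genes, aspartate 3 and 0 of 13, phenylalanine 3 and 1 of 11. Arginine had 2 and 2 of 26, asparagine 2 and 1 of 26, lysine 2 and 1 of 27, proline 2 and 0 of 20, tyrosine 2 and 0 of 13, and initiator methionine 2 and 1 of 8. Glutamate had 1 and 1 of 20 and selenocysteine 1 and 1 of 2, while glutamine (19 genes), threonine (20) and tryptophan (7) had 1 untreated summit gene each and no etoposide one. Cysteine, one of the larger groups with 29 genes, had 0 untreated and 1 etoposide. Elongator methionine (11 genes) and histidine (9) had none. With at most 7 genes in a group in either library, differences between amino acids are within a few genes.

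**Figure D4:**
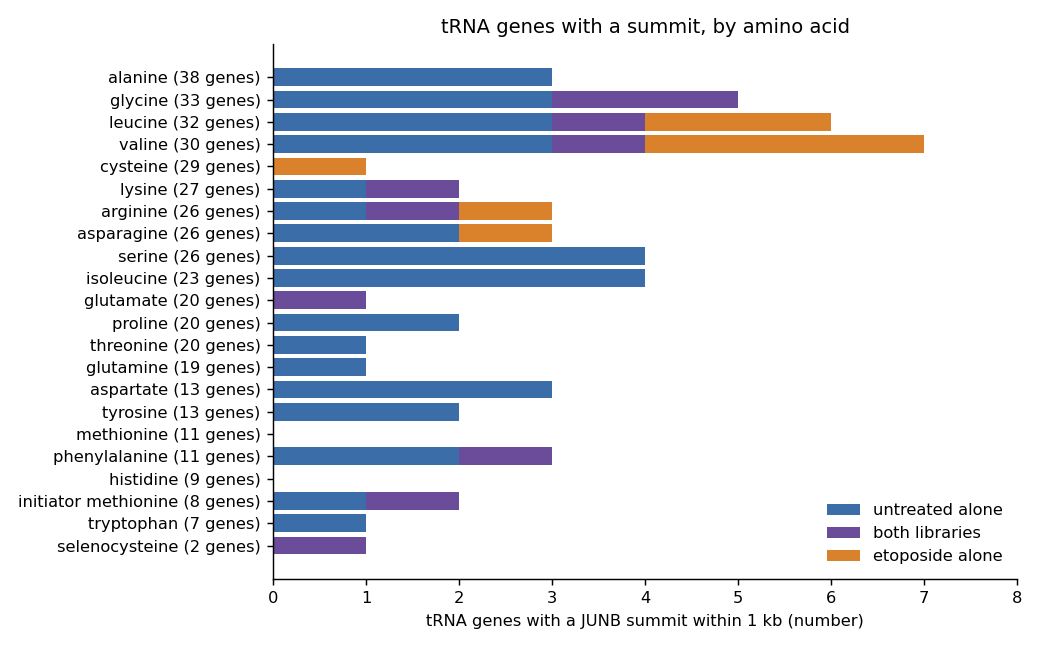
Number of tRNA genes with a JUNB summit within 1 kb (x axis) by amino acid (y axis, with the number of genes), split into genes with a summit in the untreated library alone (blue), in both (purple) and in the etoposide library alone (orange). Valine reaches 7 genes and leucine 6, and histidine and elongator methionine have none.

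At 8 of the 10 genes with a summit in both libraries the peaks overlapped. The most fragments were at the selenocysteine gene TRU-TCA1-1 on chromosome 19 (45478601 to 45478687), whose tRNA reads UGA as selenocysteine. Its untreated peak at 45478337 to 45479096 had 27 fragments and a -log10 q of 17.5, with the summit 250 bp from the gene. In the etoposide library 2 peaks overlapped it, with 9 fragments 90 bp from the gene and 19 fragments 309 bp from it (-log10 q 4.22 and 15). The nearest protein-coding gene, at 3.42 kb, was FOSB, which codes for an AP-1 partner of the JUN proteins. At the initiator methionine gene TRX-CAT1-1 on chromosome 1 (153671250 to 153671321), 0.257 kb from ILF2, each library had a pair of peaks, with 24 and 13 fragments (untreated) and 10 and 6 (etoposide). The untreated peak at 153671188 to 153671641 spanned the tRNA gene and had its summit 181 bp away (-log10 q 18.8). Initiator tRNA brings the first methionine of every protein.

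The lysine gene TRK-TTT3-5 on chromosome 17 (8119155 to 8119227) had an untreated peak of 24 fragments 766 bp away, inside ALOXE3, and etoposide peaks of 19 fragments 774 bp away and 11 fragments 447 bp away. The AP-1 motifs printed above, at 8118501 to 8118507 and 8118514 to 8118520, lay inside the untreated peak (8118278 to 8118700), away from its summit at 8118389, and outside both etoposide peaks (8118262 to 8118487 and 8118682 to 8118870). The leucine gene TRL-CAG1-7 on chromosome 6 (26521208 to 26521290) had 15 fragments in both libraries, 510 and 578 bp away, with a -log10 q of 10.5 (untreated) and 11.6 (etoposide). It was also the single chromosome 6 gene with an etoposide summit.

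The glutamate gene TRE-TTC2-1 on chromosome 13 (44917927 to 44917998) had 25 fragments in the untreated library on a local background of 3.49, and 14 in the etoposide library on 1.59. A valine gene without copy number, TRNAV-CAC on chromosome 1 (145161108 to 145161178), had 19 and 10 fragments. The phenylalanine gene TRF-GAA2-1 on chromosome 11 (59566380 to 59566452) had 15 and 7. At the glycine gene TRG-CCC2-2 on chromosome 16 (636736 to 636806) both libraries had 8 fragments, 135 and 177 bp from the gene. The etoposide library thus had fewer fragments at most of these places, where it also had fewer at the median peak of the list.

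At the other 2 of the 10 genes the peaks were separate. The glycine gene TRG-TCC2-6 on chromosome 1 (161531113 to 161531184) had 11 untreated fragments 249 bp away and 9 etoposide fragments 464 bp away. The arginine gene TRR-ACG2-1 on chromosome 3 (45688999 to 45689071), 0.325 kb from SACM1L, had 12 untreated fragments 520 bp away and 8 etoposide fragments 255 bp away.

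The 37 genes with an untreated summit alone lay in 29 loci. Their nearest etoposide summit was 3.19 kb away at the least and 31.1 kb at the median. The highest -log10 q among them was 11.5, at the serine gene TRS-TGA1-1 on chromosome 10 (67764503 to 67764584), with 15 fragments 136 bp away and 0.909 kb from CTNNA3. The proline genes TRP-AGG2-4 and TRP-TGG2-1 on chromosome 11 shared a peak of 16 fragments, 234 and 546 bp away (-log10 q 10.9), 24.8 kb from WNT11. On chromosome 8 the tyrosine genes TRY-GTA5-1 and TRY-GTA5-2, inside TRIM55, had untreated peaks of 17 and 10 fragments (-log10 q 10.4 and 3.91), and the alanine gene TRA-AGC8-2 was within reach of the second. The aspartate gene TRD-GTC2-8, inside LTA4H on chromosome 12, had 15 fragments 212 bp away (9.51), and the lysine gene TRK-TTT3-4 on chromosome 11 had 16 fragments 759 bp away (8.96). The alanine gene TRA-CGC1-1 and the isoleucine gene TRI-AAT5-1 on chromosome 6 shared a peak of 15 fragments between them (8.84). Beside a histone gene, the initiator methionine gene TRX-CAT1-2, 0.992 kb from H4C8, had 11 fragments 736 bp away. That summit was nearer to H4C8, at 0.256 kb, and cannot be told apart from a peak of the histone gene.

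The 8 genes with an etoposide summit alone lay in 4 loci. Their peaks had 8 to 11 fragments, where the list median was 13. Their -log10 q was 5.19 to 6.84, below the list median of 7.85, except at TRC-GCA9-1, where it was 8.37. A single peak of 9 fragments on chromosome 11 (59550774 to 59550962) served 4 of them, TRV-TAC1-1, TRV-TAC2-1, TRR-TCT3-2 and TRL-TAA3-1, at 183, 103, 410 and 871 bp. One of 8 fragments on chromosome 5 (181187424 to 181187621) served TRL-AAG2-1 and TRV-AAC2-1, at 243 and 958 bp. The cysteine gene TRC-GCA9-1 on chromosome 3 (132231798 to 132231869) had 11 fragments 160 bp away, and the asparagine gene TRN-GTT1-1 on chromosome 1 (161540241 to 161540314) had 9 fragments 250 bp away. The nearest untreated summits were between 8.81 and 35.6 kb away.

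Summits of both libraries were found in 4 clusters. In 2 of them, with TRNAV-CAC on chromosome 1 and TRK-TTT3-5 on chromosome 17, both libraries marked the same gene and no other. In the other two they shared a gene and each also marked genes alone. On chromosome 11, in the 8 genes from TRV-TAC1-1 to TRF-GAA2-1, the etoposide library had the peak at the first 4 genes, the untreated library the peak near TRK-TTT3-4, and both had one at TRF-GAA2-1. TRK-TTT5-1 and TRF-GAA1-3 had none. On chromosome 1, TRG-GCC2-1 had an untreated summit alone with 12 fragments, TRG-TCC2-6 one in each library and TRN-GTT1-1 an etoposide summit alone. TRL-CAG1-6 between them was just outside the limit in both, at 1009 and 1224 bp.

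**Figure D5:**
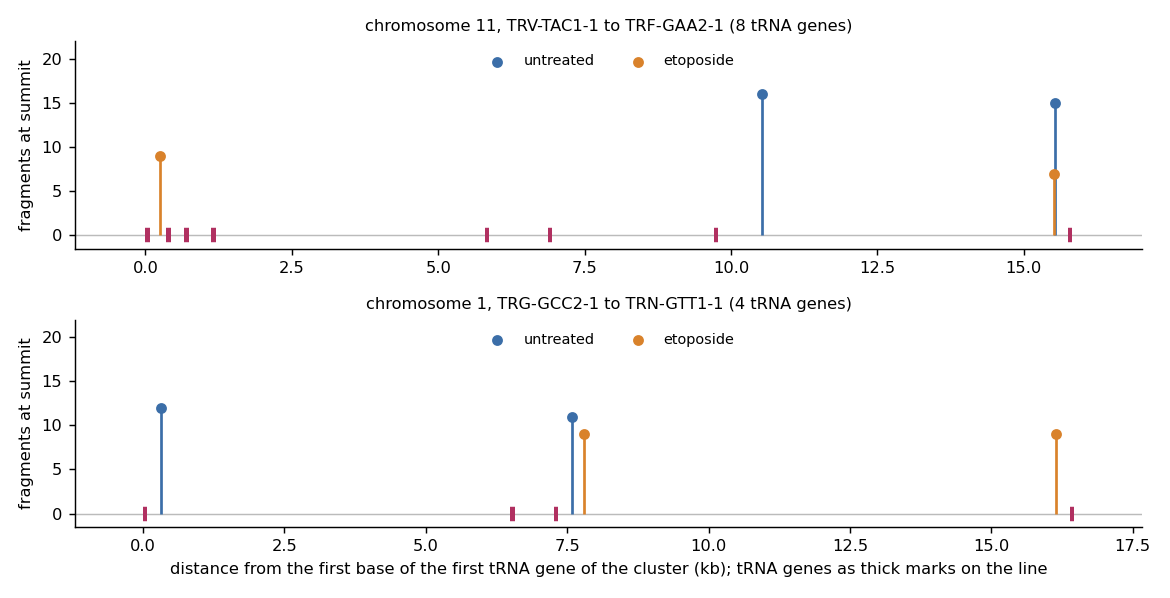
Positions of tRNA genes (marks on the grey line) and of JUNB summits within 1 kb of one (vertical lines, height in fragments at the summit) in 2 tRNA clusters, by distance from the first base of the cluster in kb, for the untreated (blue) and etoposide (orange) libraries. On chromosome 11 the libraries have a summit at the same place only at the last gene, and on chromosome 1 the summits nearest each other are those by TRG-TCC2-6.

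Other genes just outside 1 kb were TRD-GTC2-11 (1038 bp) and TRK-CTT2-3 (1347 bp) in the untreated library and TRQ-CTG1-5 (1044 bp) and TRP-TGG3-1 (1396 bp) in the etoposide library. Just inside were TRV-CAC1-5 (931 bp), TRD-GTC2-9 (877 bp) and TRL-CAG2-2 (822 bp) in the untreated library and TRV-AAC2-1 (958 bp), TRL-TAA3-1 (871 bp) and TRE-TTC2-1 (682 bp) in the etoposide library.

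Other genes read by RNA polymerase III were compared by the same rule. Of 38 such genes 9 had an untreated summit (23.7%), 5 an etoposide summit (13.2%) and 3 both. Over all 10589 annotated genes up to 500 bp long, a background added after the values had been seen, the shares were 3.26% (untreated) and 2.24% (etoposide). All 4 genes annotated as vault RNA had an untreated summit at 0.186 to 0.275 kb from the gene. VTRNA1-1 had 31 fragments (-log10 q 28.3) and 13 in the etoposide library, VTRNA1-3 had 19, VTRNA2-1 14 and VTRNA1-2 12 in the untreated library alone. RNY1, RNY5 and RNU6ATAC also had an untreated summit alone, with 15, 13 and 10 fragments, at 0.488, 0.439 and 0.0930 kb. The vault RNA genes were thus within the range of 100 to 300 bp and these 3 genes were not. None of the 17 genes of 5S ribosomal RNA and none of the 5 U6 genes had a summit in either library.

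Summits inside the gene were found at RN7SL1, RN7SL2, RN7SK and RPPH1, which code for the RNAs of the signal recognition particle, of the 7SK complex and of RNase P, the enzyme that trims the 5′ end of tRNA precursors. RN7SL1 had 28 fragments in the untreated library (rank 1654) and 101 in the etoposide library (rank 6), and RN7SL2 had 26 and 30. RN7SK and RPPH1 had an etoposide summit alone, with 55 fragments (rank 75) and 23 (rank 1289). At tRNA genes no summit lay inside a gene, and the highest etoposide count was 19. The tRNA genes are at most 108 bp long, shorter than RN7SL1, RN7SL2, RN7SK and RPPH1, and the part of gene length was not tested. Many near-identical copies of RN7SL and RN7SK sequence occur in the genome, and how reads were shared among them was not tested.

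The genes that serve tRNA synthesis and use were counted at either boundary. Within 1 kb of a boundary, an untreated summit was listed for 16.6% of all 19974 protein-coding genes and an etoposide summit for 6.87%. Of 31 genes of the RNA polymerase III machinery 3 had an untreated summit (9.68%: the polymerase subunit genes POLR3B, POLR3F and POLR3GL, with 10, 9 and 11 fragments) and 2 an etoposide summit (6.45%: POLR3B with 9 fragments and GTF3C1, a TFIIIC subunit gene, with 10). These shares are near or below the background.

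Of 23 genes of cytosolic aminoacyl-tRNA synthetases and their scaffold proteins, which load tRNAs with amino acids, 5 had an untreated summit (21.7%). They were LARS1 (17 fragments), FARSB (15), AIMP1 (14), SARS1 (10) and MARS1 (8). RARS1 alone had an etoposide summit (8 fragments, 4.35% of the list). Of 33 genes of tRNA processing and modification 10 had an untreated summit (30.3%) and 4 an etoposide summit (12.1%). The highest -log10 q in the untreated library were at RPP14 (19 fragments, 16.5) and RPP40 (18, 14.8), which code for subunits of RNase P, WDR4 (23, 16.3), a partner of the tRNA methyltransferase METTL1, RPP38 (12, 9.83) and RPP30 (11, 6.62). RPP40 was the single gene of the list with a summit in both libraries, with 11 fragments in the etoposide library. RPPH1, which is in both lists, ADAT1 and TRMT1 had an etoposide summit alone. The untreated share of this list was above the background of 16.6% and the etoposide share above 6.87%. However, RPPH1, counted among the 4 etoposide genes, is an RNA gene, whereas the background holds protein-coding genes only.

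Inside or within 10 kb of the gene the untreated and etoposide numbers were 14 and 11 of 31 machinery genes (45.2% and 35.5%), 14 and 9 of 23 synthetase genes (60.9% and 39.1%) and 19 and 11 of 33 processing genes (57.6% and 33.3%). Over all protein-coding genes they were 49.6% and 38.9%. With lists of this size 1 gene is several percent, and no list stood far from the background in the wider window. Of 11 fibroblast marker genes 9 had an untreated and 8 an etoposide summit in that window, beside 4 and 1 of 5 epithelial, 3 and 2 of 3 endothelial and 2 and 2 of 4 leukocyte markers. A JUNB peak near a gene does not measure its expression, so the labelled cell type could not be checked from these files.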

How the data were processed

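The files were the authors' 2 deposited peak lists in narrowPeak layout, 1 per library. Per the submitters' processing notes, Bowtie2 and MACS2 were used and the builds hg38 and mm10 are named without a role. Contig names were those of hg38, and settings are not given in the sources used here. The deposited fold is the ratio of summit signal to local background, the deposited -log10 p and -log10 q belong to each peak, and the deposited score is 10 times -log10 q within 1. These values are the authors' own and describe peaks within their list.

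Peaks on chromosomes 1 to 22 and X were used. A summit is the peak start plus the summit offset, counted from 1. Genes came from RefSeq (GRCh38.p14), and gene strand from its promoter table, which covered 15812 of 19974 protein-coding genes. The counts of summits before and after tRNA genes could not be made for most genes without strand. Gene start shares rest on genes with strand. Depth is not given by peak lists: fragments at the summit were worked out as a whole number k with fold (k + 1)/(b + 1) and -log10 p of the Poisson tail above k at background b, which held for 100% of peaks of both lists within 0.001. The functions for distances, covered bases, the joining of loci and the fragments at a summit were tested on simulated data. Those for overlaps between lists, intervals, gene symbols, motifs and strand were not. Counterparts share at least 1 bp. Wilson 95% intervals cover counting error only, and neighbouring genes are not independent.

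tRNA genes named are all with a summit in both libraries, the 8 per library with the highest -log10 q among those in 1 library alone, the 3 nearest outside 1 kb per library, clusters of 10 or more genes, and genes of the fixed lists with a summit within 1 kb (the 5 strongest per library where there were over 10). A few further genes, chosen after their values were seen, are named to complete a cluster, a shared peak or a printed sequence. The list of tRNA processing genes was matched at 33 of 35 symbols. The members and lists were chosen with earlier results of these data known. Alternatives changed the window, peak strength, list length, overlap rule, joining distance and members. Python 3.11.15, numpy 2.4.6, pandas 2.3.3 and scipy 1.17.1 were used.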

Additional observations from a re-analysis of the deposited data

Results flagged for a closer look

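The mitochondrial genome, which carries 22 tRNA genes, was left out of the counts above. It had 4 untreated peaks, all of them within 1 kb of a tRNA gene, so nearness to a tRNA gene did not set any of them apart. They had 120 to 136 fragments at the summit on local backgrounds of 58.2 to 73.4, so their fold was low, from 1.63 to 2.18. The etoposide list had 2 such peaks and no others on that genome, with 186 and 222 fragments on backgrounds of 121 and 113. In each library 5 of the 22 mitochondrial tRNA genes had a summit within 1 kb. The local background there was far above the list medians of 1.27 and 0.907, and its part in these peaks was not tested.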

How the results depend on the processing

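Of 58 alternative counts 44 stayed within 1.5 times the main count, and the etoposide number was below the untreated number under every alternative run. Leaving out chromosome 6 or the genes without copy number was chosen after the data had been seen. With a window of 250 bp, 23 untreated and 10 etoposide genes had a summit, and 5 both; at 500 bp both libraries shared 6 genes. At 3 kb there were 29 etoposide genes and 19 in both, and at 10 kb 104, 59 and 50. Among the 10000 strongest peaks of each library 5 untreated and 3 etoposide genes had a summit, and 2 in both, so most of the counted genes rest on weaker peaks. Of the 353 tRNA genes over 1 kb from a protein-coding gene 30 had an untreated summit and 6 one in both libraries. With the untreated list at the etoposide length 36 genes had an untreated summit. The etoposide list was unchanged there, so its count of 18, which is among the 44, could not move. Every tRNA symbol gives an amino acid and none was a pseudogene, so that alternative removed no gene. Its counts are also among the 44 and could not move. No paired analysis was possible because each condition had 1 library. Depth, mappability and read assignment cannot be read from peak lists.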

Other observations

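By anticodon, 28 of 48 had a gene with an untreated summit and 17 one with an etoposide summit. CAC (valine) had the most in the untreated library, 4 of 15 genes, followed by CAG (leucine, 3 of 9), GAA (phenylalanine, 3 of 11), GTC (aspartate, 3 of 13) and AAT (isoleucine, 3 of 15). TAC (valine) had 2 of 5 genes with an etoposide summit and 0 with an untreated one, and both genes were reached by the same peak on chromosome 11. GCA (cysteine), the anticodon with the most genes, had 1 of 29 in the etoposide library. AGC (alanine), with 25 genes, had 1 in the untreated library. These counts were not tested.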
